A study of Homo sapiens with 24 samples.

Results

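The 10 genes described here encode enzymes and carriers of amino acid metabolism that are known targets of the transcription factor ATF4: ASNS, PSAT1, PHGDH, PSPH, SHMT2, MTHFD2, SLC7A5, SLC3A2, SLC7A11 and CTH. They were chosen by symbol out of 22109 genes with a usable probe set on an Affymetrix expression array, and each is represented by its probe set with the highest mean, which for all 10 was its single one. The arrays measured total RNA of HAP1 cells, a near-haploid human line derived from the leukaemia line KBM-7. The 24 arrays cover 6 lines in 3 arms: lomustine, a DNA-alkylating nitrosourea, at 200 µM for 2 h (9 arrays), SA100 (6 arrays) and no drug (9 arrays). SA100 stands for sodium arsenite (NaAsO2) at 100 µM for 2 h according to the treatment text, although the agent field of those arrays names lomustine, and they were grouped by their titles. S51A is the line whose translation factor eIF2-alpha cannot be phosphorylated at the stress-regulated serine, and the lines it is set against are HRI, GCN2, PKR and PERK, each named for the eIF2-alpha kinase it lacks, and the parental line PAR. S51A, HRI and PAR had 2 arrays (repetitions A and B) with lomustine and 2 without drug, and every other combination of line and arm had 1 array. All lines were purchased, and each genotype is represented by 1 line, so the named change and other differences between lines cannot be told apart. Lines without ATF4 or EGR1 are mentioned in the study's design and were not analysed here.

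When a stress kinase phosphorylates eIF2-alpha, general translation falls while the ATF4 messenger RNA is translated more, and ATF4 then binds composite C/EBP-ATF sites in its target genes. One branch of this response supplies amino acids: ASNS makes asparagine, PHGDH, PSAT1 and PSPH make serine, SHMT2 and MTHFD2 pass serine's carbon into the mitochondrial folate pool, CTH makes cysteine, and the SLC proteins carry amino acids across the plasma membrane. HRI, GCN2, PKR and PERK are known as sensors of haem or mitochondrial stress, amino acid shortage, double-stranded RNA and unfolded protein in the endoplasmic reticulum.

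All values are log2 intensities as deposited, differences are on the same log2 scale, and levels of different genes are not compared, since probe sets differ in brightness. Each of the 10 genes lay above 2.42, the median of all values, on every array, the lowest value being 4.12 for CTH. EGR1, an immediate early gene, lay at 6.89 to 8.69 with lomustine and at 7.86 to 10.02 with SA100, against 3.59 to 4.75 without drug, so both treatment labels separate from the untreated arrays. The transcripts of the 4 kinase genes overlap between the named line and the others: EIF2AK1 lay at 7.49 to 7.84 in HRI, against 6.92 to 7.96 in the other lines, EIF2AK2 at 6.74 to 7.79 in PKR, against 6.35 to 7.94, and EIF2AK3 at 3.33 to 4.31 in PERK, against 3.33 to 4.84. EIF2AK4 lay at 5.76 to 5.89 in GCN2, against 5.63 to 6.48 in the other lines, and GCN2 was its lowest array with SA100 and without drug but not with lomustine. Of the markers of blood, epithelium and fibroblasts, 1 of 6, 3 of 7 and 2 of 7 exceeded the median of all values on every array. S51A lomustine B stood apart from all other arrays, where 8.72% of probe sets differed by over 1 log2 unit from what the remaining arrays read at the median, against at most 3.38% on any other array. Several results for the 10 genes that lean on it are given with and without it. The labels do not say whether repetitions were separate cultures, so the spread between them may be technical. The p-values for differences without drug and for differences in response rest on that spread. Those for arms and for lines over all arms also take in how far the responses of the lines differ. In a culture, a change in the number of expressing cells and in RNA per cell cannot be told apart.

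With lomustine 1 of the 10 genes, ASNS, rose over the lines and none fell, where 0.248% of all 17339 genes tested rose and 0.779% fell. The median change of the 10 was 0.08, beside -0.04 over all genes, and 8 of 10 were above 0, as were 6780 of the 17339 genes. With SA100 2 of the 10 rose, SLC3A2 and CTH, and none fell, where 2.11% of all genes rose and 0.952% fell. The median was 0.09, beside 0.04 over all genes, and 8 of 10 were above 0, as were 10448 of the 17339 genes. Both treatments were compared with the same untreated arrays. Over all arms, S51A had 1 of the 10 lower than the other lines, CTH, and none higher, where 2.93% of all genes were lower and 3.12% higher. These calls use limma with terms for arm and line and a Benjamini-Hochberg adjusted p under 0.05.

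**Figure D1:**
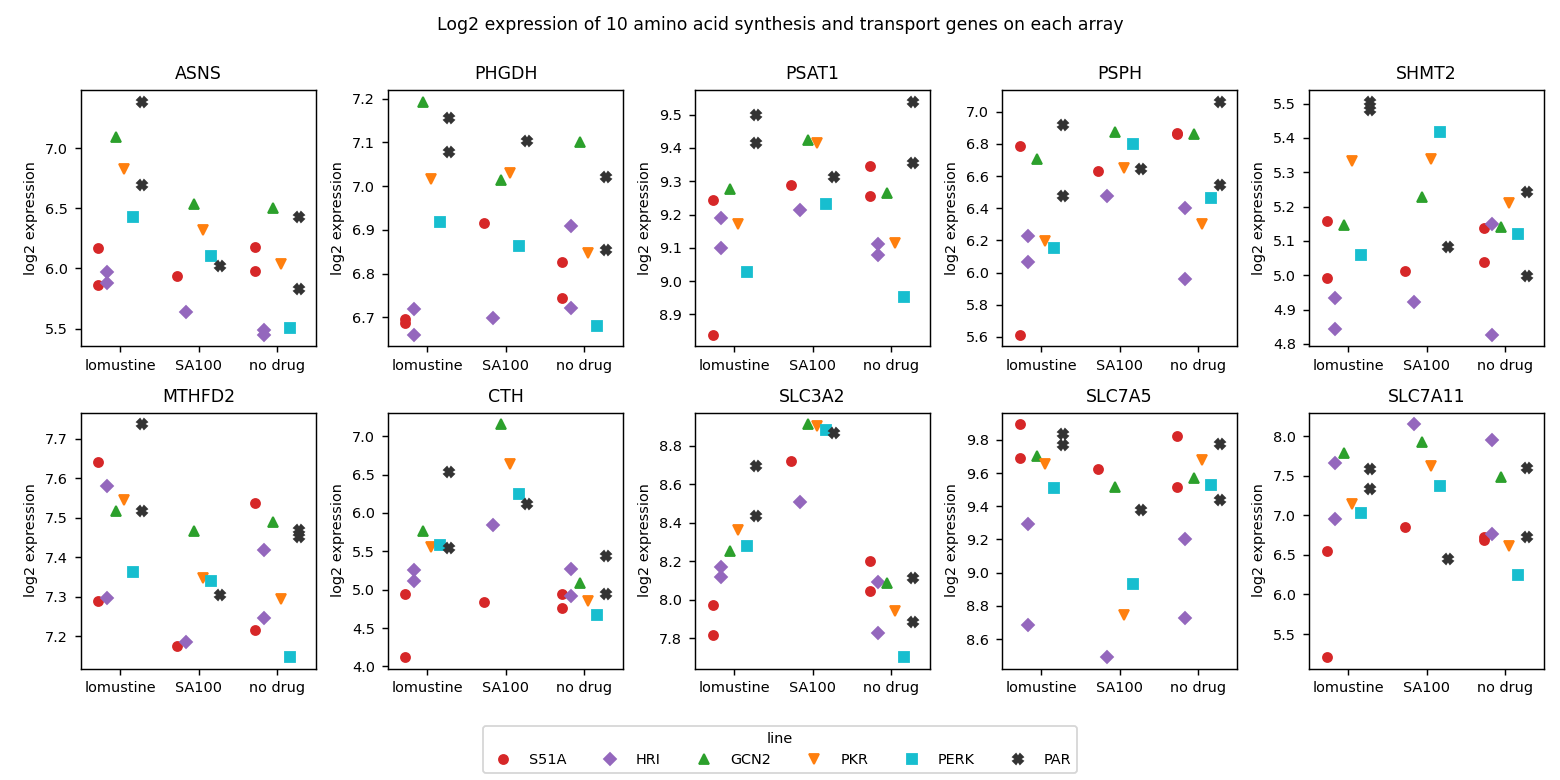
Log2 intensity of each of the 10 genes (1 panel a gene, y axis) on every array, by arm (x axis: lomustine, SA100, no drug), with 1 point an array and S51A in its own colour. CTH in S51A stays at 4.12 to 4.95 in all arms, while with SA100 the other lines reach 5.84 to 7.16.

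ASNS, asparagine synthetase, makes asparagine from aspartate and glutamine. With lomustine it read 6.17 and 5.86 in S51A, 5.97 and 5.88 in HRI, 7.09 in GCN2, 6.83 in PKR, 6.43 in PERK, and 6.70 and 7.39 in PAR. With SA100 it read 5.94 in S51A, 5.64 in HRI, 6.54 in GCN2, 6.32 in PKR, 6.10 in PERK and 6.02 in PAR. Without drug it read 5.98 and 6.18 in S51A, 5.49 and 5.45 in HRI, 6.50 in GCN2, 6.04 in PKR, 5.51 in PERK, and 5.83 and 6.43 in PAR. The lomustine and untreated arrays overlap, because the S51A, HRI and PERK arrays with lomustine lie within the untreated range, but within 5 of 6 lines the lomustine level was the higher one. ASNS averaged 6.48 ± 0.55 with lomustine and 5.93 ± 0.40 without drug (SD, n = 9 each), and lomustine raised it 1.46-fold (log2 change 0.55, SE 0.13, limma adjusted p = 0.0432). The call is narrow: with each array left out in turn it was kept in 5 of 24 fits, those without PAR SA100, HRI lomustine B, S51A lomustine A, S51A lomustine B or S51A without drug B, and the adjusted p ran from 0.0126 to 0.101. It was also lost with line and letter as a replicate block (adjusted p = 0.0542), with arrays centred on their medians (0.124), or without any 1 of the lines HRI, GCN2, PKR, PERK and PAR. With SA100 the ASNS change was 0.10 (SE 0.15, limma adjusted p = 0.782).

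By line, the lomustine response of ASNS was -0.06 in S51A, 0.46 in HRI, 0.59 in GCN2, 0.79 in PKR, 0.92 in PERK and 0.91 in PAR. S51A had the lowest response, and without S51A lomustine B its value was 0.10, still below the other lines. The ASNS promoter is a textbook site of ATF4 binding, and the motif searched in the promoters was TGATGNAA on either strand (TTNCATCA on the other), a core of the C/EBP-ATF site. RefSeq promoters (GRCh38.p14, 250 bases before to 50 after a start) were at hand for 7 of the 10 genes, all but PSPH, SHMT2 and SLC7A11. The motif occurred in 2 of their 10 promoters, one of ASNS and one of SLC3A2, and in 3.62% of the 35116 promoters in the table. These 3 promoters are shown because ASNS, SLC3A2 and CTH are the genes that rose with a treatment. Capitals mark the motif, which starts at -68 from the ASNS start shown. The window of the other of the 2 listed ASNS starts does not hold it.
ASNS promoter, chr7:97872359-97872658, minus strand: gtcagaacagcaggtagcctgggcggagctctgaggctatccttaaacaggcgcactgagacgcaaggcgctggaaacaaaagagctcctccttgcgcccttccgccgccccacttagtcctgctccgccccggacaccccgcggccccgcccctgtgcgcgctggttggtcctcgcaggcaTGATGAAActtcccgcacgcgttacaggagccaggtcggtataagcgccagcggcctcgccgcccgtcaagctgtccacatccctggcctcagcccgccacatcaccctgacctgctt
SLC3A2 promoter at the last of its 3 listed starts, chr11:62881449-62881748, plus strand: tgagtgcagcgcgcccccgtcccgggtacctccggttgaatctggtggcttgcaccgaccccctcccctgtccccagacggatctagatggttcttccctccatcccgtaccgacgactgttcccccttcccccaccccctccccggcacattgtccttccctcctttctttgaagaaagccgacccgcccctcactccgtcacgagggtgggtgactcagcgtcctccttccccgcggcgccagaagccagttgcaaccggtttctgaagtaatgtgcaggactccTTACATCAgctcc
CTH promoter, chr1:70411018-70411317, plus strand: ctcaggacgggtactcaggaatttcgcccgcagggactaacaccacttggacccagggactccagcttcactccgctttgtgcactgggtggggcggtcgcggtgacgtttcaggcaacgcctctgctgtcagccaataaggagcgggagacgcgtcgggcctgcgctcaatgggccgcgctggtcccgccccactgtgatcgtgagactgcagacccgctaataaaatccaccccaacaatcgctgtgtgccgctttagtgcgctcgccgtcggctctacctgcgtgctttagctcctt
In SLC3A2 the motif TTACATCA, the other-strand form, begins at base 38 counted from and including the start base, and the CTH window does not hold these letters. A match is a description of the sequence and was not tested as a binding site.

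CTH, cystathionine gamma-lyase, releases cysteine from cystathionine in the last step of transsulfuration. With SA100 it read 4.83 in S51A, 5.84 in HRI, 7.16 in GCN2, 6.64 in PKR, 6.25 in PERK and 6.11 in PAR. Without drug it read 4.95 and 4.76 in S51A, 5.27 and 4.91 in HRI, 5.08 in GCN2, 4.85 in PKR, 4.67 in PERK, and 4.94 and 5.43 in PAR. Every SA100 array except that of S51A exceeded every untreated array. CTH averaged 6.14 ± 0.79 with SA100 (SD, n = 6) and 4.99 ± 0.24 without drug (SD, n = 9), and rose 2.13-fold (log2 change 1.09, SE 0.22, limma adjusted p = 0.00774), with an increase in 5 of 6 lines. It was called with each array left out in turn, and was not called without the whole line GCN2 (log2 change 0.92, adjusted p = 0.0609) or PKR (0.97, adjusted p = 0.0574).

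With lomustine CTH read 4.94 and 4.12 in S51A, 5.11 and 5.26 in HRI, 5.76 in GCN2, 5.56 in PKR, 5.59 in PERK, and 5.54 and 6.53 in PAR. Both S51A arrays lie below all 7 others. The change with lomustine over the lines was 0.39 (SE 0.20, limma adjusted p = 0.375), and 0.49 without S51A lomustine B. By line, the SA100 response of CTH was -0.02 in S51A, 0.75 in HRI, 2.07 in GCN2, 1.79 in PKR, 1.57 in PERK and 0.92 in PAR, and the lomustine response was -0.33 in S51A, 0.09 in HRI, 0.68 in GCN2, 0.71 in PKR, 0.91 in PERK and 0.85 in PAR. S51A ranks lowest and HRI next lowest under both treatments. The lomustine response of S51A was 0.08 without S51A lomustine B, beside 0.09 in HRI.

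SLC3A2, the heavy chain (4F2hc, CD98) that brings several light-chain amino acid carriers to the cell surface, was higher with SA100 in every line. With SA100 it read 8.72 in S51A, 8.51 in HRI, 8.91 in GCN2, 8.90 in PKR, 8.88 in PERK and 8.86 in PAR. Without drug it read 8.05 and 8.20 in S51A, 7.82 and 8.09 in HRI, 8.08 in GCN2, 7.94 in PKR, 7.70 in PERK, and 7.88 and 8.11 in PAR. No SA100 array overlaps the untreated arrays, and S51A is among the lines that responded. SLC3A2 averaged 8.80 ± 0.16 with SA100 (SD, n = 6) and 7.99 ± 0.16 without drug (SD, n = 9), and rose 1.75-fold (log2 change 0.80, SE 0.11, limma adjusted p = 9.5e-05), with an increase in 6 of 6 lines. It was called in 39 of 39 alternative fits. SLC3A2 is the only 1 of the 10 genes whose SA100 arrays all exceed the untreated ones, and no member shows this with lomustine. The share of all genes that separate in this way was not counted.

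With lomustine SLC3A2 read 7.97 and 7.82 in S51A, 8.12 and 8.17 in HRI, 8.25 in GCN2, 8.36 in PKR, 8.28 in PERK, and 8.70 and 8.44 in PAR. Both S51A arrays again lie below the other 7. The change over lines was 0.25 (SE 0.10, limma adjusted p = 0.241), positive in 5 of 6 lines, with -0.23 in S51A (-0.15 without S51A lomustine B) against 0.17 to 0.58 in the other lines. SA100 raised SLC3A2 above lomustine as well, by 0.56 (SE 0.11, limma adjusted p = 0.00478).

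SLC7A5 (LAT1), the light chain that pairs with SLC3A2 to import large neutral amino acids such as leucine, was lower with SA100 than with lomustine. With SA100 it read 9.63 in S51A, 8.49 in HRI, 9.52 in GCN2, 8.74 in PKR, 8.93 in PERK and 9.38 in PAR. With lomustine it read 9.89 and 9.69 in S51A, 9.29 and 8.69 in HRI, 9.70 in GCN2, 9.65 in PKR, 9.51 in PERK, and 9.83 and 9.77 in PAR. Without drug it read 9.52 and 9.82 in S51A, 8.73 and 9.20 in HRI, 9.57 in GCN2, 9.68 in PKR, 9.53 in PERK, and 9.44 and 9.77 in PAR. HRI supplies the lowest array of each arm. Between treatments SLC7A5 was lower with SA100 than with lomustine by a log2 change of -0.46 (SE 0.12, limma adjusted p = 0.0271), whereas the change of SA100 against no drug was -0.37 (SE 0.12, limma adjusted p = 0.107), below 0 in 6 of 6 lines. Leaving out PKR SA100, PERK SA100, HRI SA100, PKR lomustine or PERK lomustine ended the first call (adjusted p 0.0546 to 0.102).

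Between the treatments, SA100 against lomustine, these 2 transport genes were the 2 of 10 members called, 1 higher and 1 lower, where 5.48% of all genes were higher and 0.473% lower. ASNS differed by -0.44 (SE 0.15, limma adjusted p = 0.0754) and CTH by 0.70 (SE 0.22, limma adjusted p = 0.0652), and neither passed. Without S51A lomustine B, ASNS passed as lower with SA100 (-0.51, adjusted p = 0.0271) and CTH did not (0.61, adjusted p = 0.0862).

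SLC7A11 (xCT) imports cystine in exchange for glutamate and also pairs with SLC3A2. With lomustine it read 6.55 and 5.21 in S51A, 6.95 and 7.66 in HRI, 7.79 in GCN2, 7.14 in PKR, 7.03 in PERK, and 7.33 and 7.58 in PAR. With SA100 it read 6.85 in S51A, 8.15 in HRI, 7.93 in GCN2, 7.63 in PKR, 7.37 in PERK and 6.45 in PAR. Without drug it read 6.73 and 6.69 in S51A, 7.95 and 6.77 in HRI, 7.49 in GCN2, 6.61 in PKR, 6.25 in PERK, and 6.73 and 7.60 in PAR. The 2 untreated HRI arrays, and likewise the 2 untreated PAR arrays, differ by more than the means of the arms do, so the spread of this gene is wide. Its change was 0.05 with lomustine (SE 0.24, limma adjusted p = 0.952) and 0.39 with SA100 (SE 0.27, limma adjusted p = 0.513). Without S51A lomustine B the lomustine change was 0.22.

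None of the 3 enzymes of serine synthesis passed the test with either treatment. PHGDH, which takes 3-phosphoglycerate into the pathway, lay between 6.66 and 7.19 with lomustine, 6.70 and 7.10 with SA100, and 6.68 and 7.10 without drug. PSAT1, the aminotransferase of the second step, lay between 8.84 and 9.50 with lomustine, 9.21 and 9.42 with SA100, and 8.95 and 9.54 without drug. The changes of both were between -0.03 and 0.10 under the treatments, and the arms overlap throughout.

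PSPH, the phosphatase of the last step, lay between 5.61 and 6.92 with lomustine, 6.48 and 6.87 with SA100, and 5.96 and 7.06 without drug. Its lomustine change was -0.24 (SE 0.14, limma adjusted p = 0.428) and below 0 in 6 of 6 lines, with -0.66 in S51A, where S51A lomustine B read 5.61 and A 6.79, and -0.08 in S51A without B. It did not pass the test, and without S51A lomustine B the change over lines was -0.13. The mitochondrial pair, SHMT2, which splits serine into glycine and a one-carbon unit, and MTHFD2, which oxidises that unit on folate, ranged from 4.83 to 5.51 and from 7.15 to 7.74 over all arrays. SHMT2 changed by 0.07 with lomustine and 0.05 with SA100, and MTHFD2 by 0.14 and -0.06. For MTHFD2 the lomustine change was positive in 6 of 6 lines, with a limma adjusted p of 0.436.

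**Figure D2:**
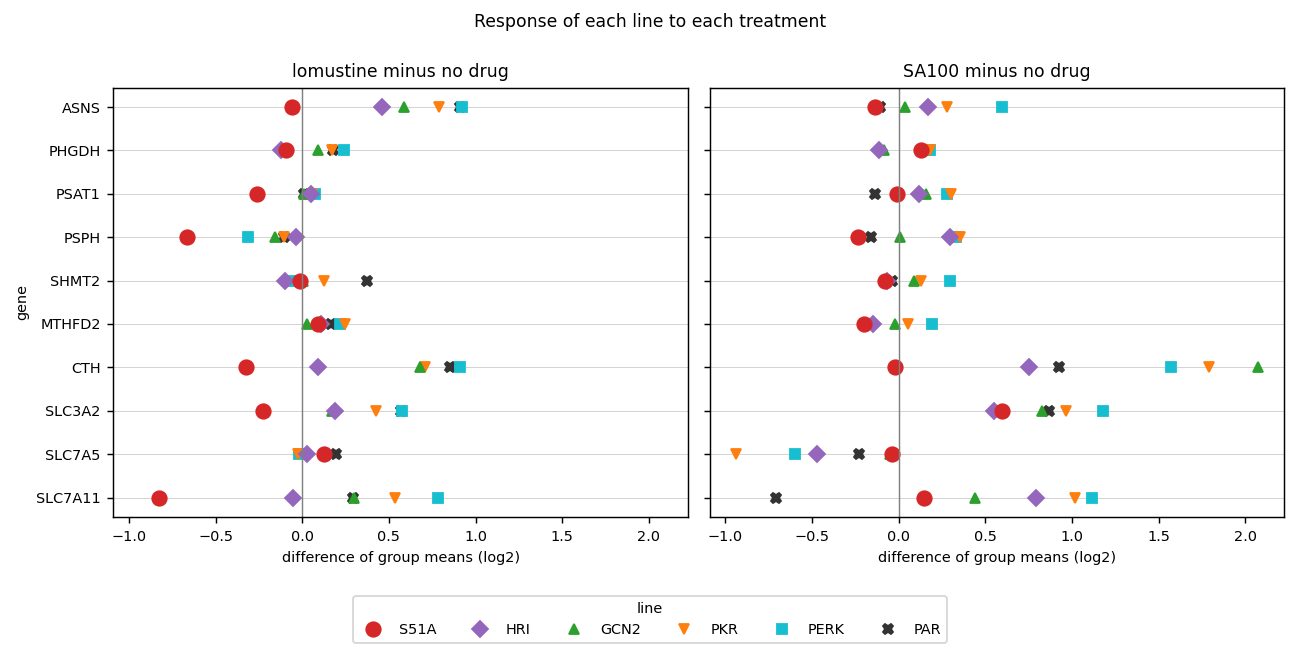
Log2 change from no drug in each line (points, S51A marked) for each of the 10 genes, with lomustine in one panel and SA100 in the other. With SA100 SLC3A2 is above 0 in 6 of 6 lines and CTH in all but S51A, where it is -0.02.

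S51A was set against the equally weighted mean of the other 5 lines. Over all arms CTH read 4.12 to 4.95 on the 5 S51A arrays (median 4.83), against 4.67 to 7.16 on the 19 arrays of the other lines (median 5.54). Within arms the S51A and other arrays overlap only without drug, and with either treatment every S51A array lies below all others. CTH was lower in S51A by a log2 change of -0.84 (SE 0.21, 95% interval -1.28 to -0.40, limma adjusted p = 0.0170). The call was lost without S51A lomustine B (-0.68, adjusted p = 0.0663) and without S51A SA100 (-0.65, adjusted p = 0.133).

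SLC7A11 read 5.21 to 6.85 in S51A (median 6.69), against 6.25 to 8.15 in the other lines (median 7.37). Its difference of -0.84 (SE 0.26, 95% interval -1.37 to -0.31) did not pass (limma adjusted p = 0.0565), and it passed with line and letter as a replicate block (adjusted p = 0.0439). That block joins untreated and lomustine arrays of the same letter. Their A minus B differences correlated at r = -0.35 in S51A, -0.53 in HRI and 0.32 in PAR, so the letters are a doubtful pairing. The SLC7A11 difference was -0.53 (adjusted p = 0.222) without S51A lomustine B. For SLC7A5 the difference was 0.32 (SE 0.11, limma adjusted p = 0.131), and for ASNS -0.24 (SE 0.14, limma adjusted p = 0.438), which became -0.12 without S51A lomustine B. The remaining 6 lay between -0.16 and 0.04, and the median of the 10 was -0.11, beside -0.01 over all genes. Without S51A lomustine B, PSAT1 stood at 0.05 and MTHFD2 at 0.01, and the median was not taken again. The PSPH difference, 0.04 with all arrays, was 0.25 without S51A lomustine B (limma adjusted p = 0.272). One of the 7 epithelial markers, EPCAM, was higher in S51A. It lay at 3.92 to 6.66 in S51A, against 2.57 to 3.58 in the other lines, a log2 difference of 2.04 (SE 0.31, limma adjusted p = 1.3e-04). The mean over the 7 epithelial markers, EPCAM included, was 3.03 to 3.32 in S51A, against 2.72 to 3.07 in the other lines. Of the 7 differences 2 were positive and 5 negative, with a median of -0.03. The part of these markers in the S51A differences was not tested.

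Without drug none of the 10 was called in S51A, where 0.750% of all genes were called in either direction, and none had an unadjusted p under 0.05, where 5.83% of all genes did. The differences ran from -0.27 for SLC7A11 (95% interval -1.16 to 0.63) to 0.34 for PSPH (95% interval -0.31 to 0.99), all with a limma adjusted p of 1.00. CTH differed by -0.12 (95% interval -0.78 to 0.53) and ASNS by 0.15 (95% interval -0.36 to 0.66), intervals that still admit sizeable differences in both directions.

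The difference between lines in the response itself was then tested. With lomustine the 10 genes changed by a median of -0.16 in S51A, 0.04 in HRI, 0.11 in GCN2, 0.21 in PKR, 0.23 in PERK and 0.24 in PAR, and S51A had the lowest response of the 6 lines in 6 of 10 genes. Over all genes the median change was -0.10 in S51A, also the lowest of the lines, and -0.09 in PAR. Without S51A lomustine B the S51A median was 0.01, beside 0.003 over all genes, and S51A was lowest in 5 of 10 genes. The share of all genes with their lowest response in S51A was not counted. The lomustine response of S51A minus that of the other lines was -0.79 for ASNS (SE 0.33, 95% interval -1.52 to -0.07), -0.61 for SLC3A2 (SE 0.25, 95% interval -1.16 to -0.07), -0.97 for CTH (SE 0.42, 95% interval -1.90 to -0.05) and -1.20 for SLC7A11 (SE 0.57, 95% interval -2.46 to 0.07). None of the 10 and none of the 17339 genes passed in limma, each of these 4 having an adjusted p of 0.997. At an unadjusted p under 0.05 stood ASNS (0.0343), SLC3A2 (0.0306) and CTH (0.0407), where 1.36% of all genes (236) did. The median difference of the 10 was -0.41, beside -0.08 over all genes, and 9 of 10 were negative, as were 60.4% of all genes. Without S51A lomustine B the median of the 10 was -0.15, beside 0.03 over all genes, and 7 of 10 were negative, as were 44.0% of all genes.

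The size of these differences leans on 1 array. All 10 genes read lower on S51A lomustine B than on A. The genes tested moved the same way at the median, with a median S51A response of -0.10 with both arrays and 0.003 without B. Over all probe sets, including those of untested genes, the median was instead higher on B (2.58, the highest of all arrays) than on A (2.35). The share of all genes lower on B was not counted. Without B the difference was -0.64 for ASNS, -0.54 for SLC3A2, -0.57 for CTH and -0.52 for SLC7A11, and for PSPH it was 0.07 in place of -0.52. In an added limma fit in which the other 5 lines share 1 response, chosen after the data were seen, ASNS gave -0.78 (unadjusted p = 0.0104, adjusted 0.866) and SLC3A2 -0.61 (unadjusted p = 0.00725, adjusted 0.866), and again no gene passed. The same limma fit without S51A lomustine B gave -0.63 for ASNS (unadjusted p = 0.0649) and -0.53 for SLC3A2 (unadjusted p = 0.0362), both with an adjusted p of 1.00.

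With SA100 the S51A line had 1 array. The median change of the 10 genes was -0.03 in S51A, 0.14 in HRI, 0.06 in GCN2, 0.29 in PKR, 0.32 in PERK and -0.12 in PAR, so PAR had the lowest median. S51A had the lowest response in 5 of 10 genes, the most of any line. Over all genes the median SA100 change was 0.02 in S51A and -0.001 in PAR, and the share lowest in S51A was not counted. The SA100 response of S51A minus that of the other lines was -1.44 for CTH (SE 0.50, 95% interval -2.54 to -0.35, unadjusted p = 0.0147, limma adjusted p = 1.00). CTH was the 1 member with an unadjusted p under 0.05, where 0.802% of all genes (139) had one, and no gene passed after adjustment. For SLC3A2 the difference was -0.28 (95% interval -0.93 to 0.36), for ASNS -0.33 (95% interval -1.19 to 0.53) and for SLC7A5 0.42 (95% interval -0.41 to 1.24).

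**Figure D3:**
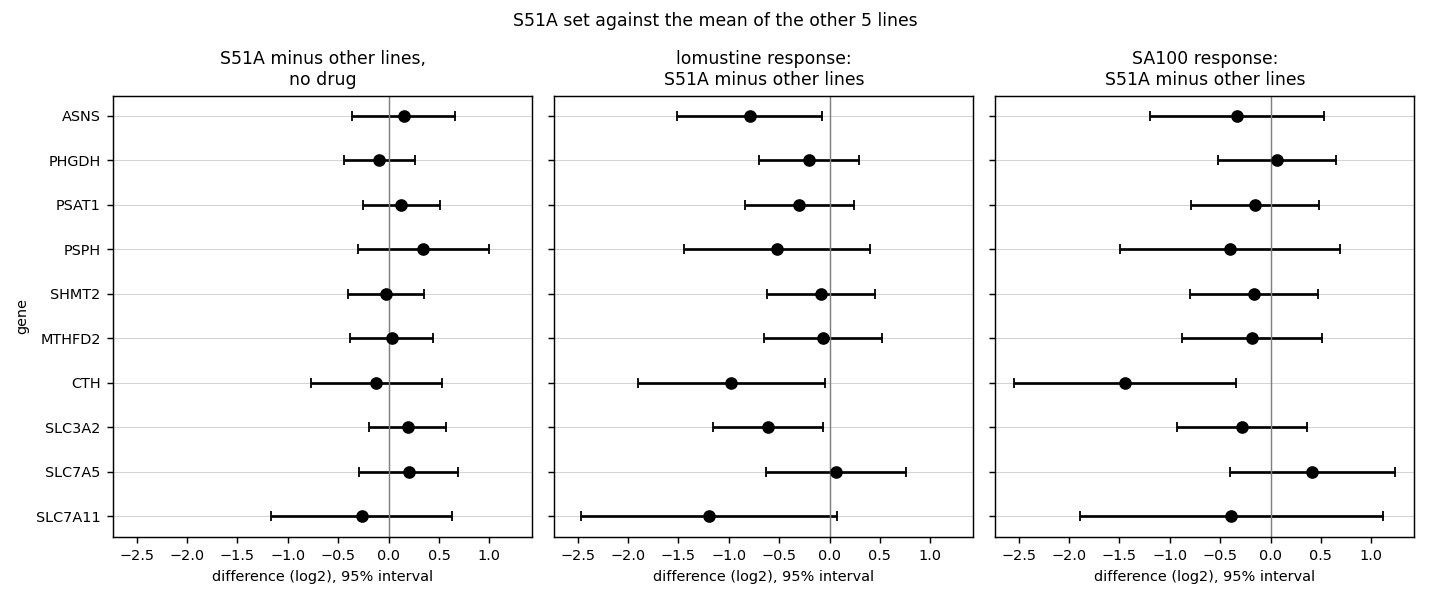
S51A minus the mean of the other 5 lines (x axis, log2) for each of the 10 genes: level without drug, lomustine response and SA100 response, with bars as 95% intervals from limma. Without drug the differences lie between -0.27 and 0.34, and the bars that miss 0 are those of ASNS, SLC3A2 and CTH for lomustine and of CTH for SA100, none of which passed adjustment over all genes.

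Under the same contrast over all arms, HRI had 2 of 10 members lower than the remaining lines, where 0.288% of all genes were lower and 0.761% were called in either direction. SLC7A5 read 8.49 to 9.29 on the 5 HRI arrays (median 8.73), and its difference was -0.68 (SE 0.11, 95% interval -0.92 to -0.44, limma adjusted p = 0.00526). ASNS read 5.45 to 5.97 on them (median 5.64), and its difference was -0.65 (SE 0.14, 95% interval -0.94 to -0.36, limma adjusted p = 0.0277). Without drug, too, HRI held the lowest arrays of both genes. PAR, GCN2, PKR and PERK had none of the 10 called, where 0.0980%, 0.161%, 0.00577% and 0.254% of all genes were called. In GCN2 and in PAR all 10 differences were positive, with medians of 0.24 and 0.20. Of all 17339 genes 9342 and 9446 were positive, with medians of 0.015 and 0.0125. The widest member difference was 0.70 for SLC7A11 in GCN2 (SE 0.31, limma adjusted p = 0.859). Nor did any member pass when the lomustine response of HRI, GCN2, PKR, PERK or PAR was set against that of the remaining lines, where no gene of 17339 passed either.

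Other genes of the same pathways were taken from lists of glycine and one-carbon metabolism, amino acid synthesis and amino acid transport. Of 13 tested one-carbon and glycine genes none passed with lomustine, with SA100 or in S51A over all arms. The smallest p values there belonged to SLC25A32, the mitochondrial folate carrier, and MTR, methionine synthase, with lomustine (-0.47 and -0.62, limma adjusted p 0.0859 and 0.107), to MTR and SFXN1, a mitochondrial serine carrier, with SA100 (-0.62 and -0.22, limma adjusted p 0.112 and 0.221), and to TYMS and FTCD in S51A (-0.35 and 0.28, limma adjusted p 0.129 and 0.228). Of 15 other synthesis genes none passed with lomustine or SA100, the smallest p being that of PYCR3 in the proline pathway (-0.34 with lomustine, limma adjusted p = 0.0861, and -0.33 with SA100, limma adjusted p = 0.0970). In S51A 1 of the 15 was higher, BCAT1, the cytosolic branched-chain aminotransferase (0.65, SE 0.11, limma adjusted p = 4.1e-04), where 3.12% of all genes were higher.

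Of 18 other transport genes 1 rose with lomustine: SLC38A2 (SNAT2), a carrier of small neutral amino acids, by 0.75 (SE 0.09, limma adjusted p = 3.0e-05). With SA100 2 of the 18 rose, SLC38A2 by 0.80 (SE 0.10) and SLC7A10 by 0.51 (SE 0.13), and 1 fell, SLC38A1 by -0.37 (SE 0.10). S51A had 2 of the 18 lower over all arms, SLC1A4 (ASCT1) by -1.07 (SE 0.16, limma adjusted p = 1.1e-04) and SLC38A2 by -0.43 (SE 0.09, limma adjusted p = 0.00557), and 1 higher, SLC1A3, by 0.70 (SE 0.15, limma adjusted p = 0.00571). Over all genes 0.248% rose with lomustine, 2.11% rose and 0.952% fell with SA100, and 2.93% were lower and 3.12% higher in S51A. SA100 against lomustine, 1 of the 13 one-carbon and glycine genes was higher in limma, SLC25A32 (0.65), and 1 of the 15 synthesis genes, BCAT2 (0.61). So were 3 of the 18 transport genes, SLC1A3 (0.55), SLC38A7 (0.48) and SLC36A1 (0.44), where 5.48% of all genes were higher. None of these 3 lists had a gene whose response in S51A differed from the other lines after adjustment.

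The 16 stress and signalling targets of ATF4 outside amino acid metabolism had more calls than the 10 genes. With lomustine 8 of 16 rose, among them ULBP1 by 1.84, DDIT4 by 1.77, CHAC1 by 1.67 and SESN2 by 1.58, and their median change was 0.46, beside 0.08 for the amino acid genes. With SA100 11 of 16 rose, among them CHAC1 by 2.98, ATF3 by 2.71, DDIT4 by 2.66 and SESN2 by 2.43, with a median of 0.92 beside 0.09. In S51A over all arms 5 of 16 were lower: DDIT4 by -1.41, ULBP1 by -1.26, SESN2 by -1.25, CHAC1 by -1.24 and TRIB3 by -0.40. Over all genes 0.248% rose with lomustine, 2.11% rose with SA100 and 2.93% were lower in S51A. The median difference in the lomustine response of S51A was -0.58 for these 16 and -0.41 for the 10 (-0.41 and -0.15 without S51A lomustine B), and none of the 16 passed. Both lists were chosen with earlier results of these data known, so their numbers of calls are not independent of that choice. The difference between the lists was not tested.

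Upstream of them, the ATF4 transcript lay at 8.35 to 8.78 with lomustine, 8.28 to 8.61 with SA100 and 8.06 to 8.57 without drug. It changed by 0.30 with lomustine (SE 0.08, limma adjusted p = 0.0651) and 0.21 with SA100 (SE 0.09, limma adjusted p = 0.225), and differed by -0.11 in S51A (SE 0.08, limma adjusted p = 0.625). EIF2S1, which encodes eIF2-alpha, and the kinase genes EIF2AK1 to EIF2AK4 had no call in these 3 comparisons, the widest difference being -0.51 for EIF2AK3 in S51A (SE 0.18, limma adjusted p = 0.126). The array reads transcripts, so neither ATF4 protein nor phosphorylated eIF2-alpha was measured.

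The mean of the 10 genes, each centred on its own mean, was highest in GCN2 with SA100 (0.43) and PAR with lomustine (0.35) and lowest in PERK without drug (-0.38) and S51A with lomustine (-0.32). Without S51A lomustine B the mean for S51A with lomustine was -0.09, and 6 of the other groups lay below it. The 5 other genes whose 18 group means followed it most closely were MTA3 (Pearson r = 0.90), HERPUD1 (0.90), TROAP (0.88), INTS6 (0.88) and METTL22 (0.88). The r values describe 18 groups that share lines and treatments, and they were ranked over all genes tested. They include S51A lomustine B, the lowest array of all for MTA3 (3.95), TROAP (4.67), INTS6 (4.36) and METTL22 (4.35). For HERPUD1 it read 5.11, and PERK without drug was lower (4.96). The ranking was not repeated without S51A lomustine B. Of the 5, HERPUD1, a protein of endoplasmic reticulum quality control, rose with SA100 by 1.04 (SE 0.22, limma adjusted p = 0.00922), and none passed with lomustine or in S51A over all arms.

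RefSeq names pseudogenes of ASNS (5), MTHFD2 (7), PSAT1 (4), SLC7A5 (2) and PSPH (1), and whether these probe sets also detect such copies was not tested.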

How the data were processed

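Total RNA of HAP1 cells was measured on 24 Affymetrix arrays. The deposited values are log2 intensities for 53617 probe sets, made by the authors with RMA and the R package affy, per the submitters' processing notes. Versions and the genome build are not given in the sources used here. Arrays give no read depth, and their number limits the precision.

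Probe sets with exactly 1 symbol (23558) gave 22109 genes. Genes at or above the median of all values (2.42) on at least 2 arrays were tested (17339). Two-sided tests in limma 3.58.1 (R 4.3.3) were adjusted by the Benjamini-Hochberg method across the whole tested set, and an adjusted p under 0.05 made a call. Arm effects and line differences over all arms came from a model of arm and line (16 residual degrees of freedom). Differences without drug and in responses came from 18 group means (6 residual degrees of freedom, all from the 6 groups with 2 arrays), where the spread of the 12 single arrays is taken from those pairs. Code was tested on simulated data.

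Named genes were all 10 members, ATF4, EIF2S1 and the 4 kinase genes, up to 4 called genes of each other list with the largest changes or otherwise the 2 with the smallest p, and the 5 genes most like the members' mean. Members and lists were chosen with earlier results of these data known. Repetition letters were not used to pair arrays, since the A minus B differences without drug and with lomustine correlated over genes with r = -0.35 in S51A, -0.53 in HRI and 0.32 in PAR. Alternatives changed the filter, probe set, scaling, prior, block, arrays and lines.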

Additional observations from a re-analysis of the deposited data

Results flagged for a closer look

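In 30 groups of 6 or 9 arrays (the 10 genes in each arm), 2 arrays lay far from the rest by Dixon's criterion, and chance alone gives about 1 in 20 groups. SLC7A11 read 5.21 on S51A lomustine B, with a gap to the next array of 0.521 of the arm's range, and this is the array that stood apart over all probe sets. SLC7A5 read 8.69 on HRI lomustine B, with a gap of 0.503 of the range, while HRI lomustine A read 9.29 and the untreated HRI arrays 8.73 and 9.20.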

How the results depend on the processing

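Values are numbers of the 10 genes called in limma. With lomustine the number was 1 as reported, 2 with the table quantile normalized again, and 0 with arrays centred on their medians, with line and letter as a replicate block, or without the line HRI, GCN2, PKR, PERK or PAR; leaving out 1 array in turn gave 0 to 1. With SA100 it was 2, and 1 without the line GCN2 or PKR. SA100 against lomustine gave 2 as reported, 4 after renewed quantile normalization or without the line S51A, 1 without the line HRI, PKR or PERK, and 1 to 3 without single arrays. S51A over all arms gave 1 as reported, 2 after renewed quantile normalization, with a trended robust prior, with the replicate block, or without the line PERK or PAR, 0 without both S51A lomustine B and PAR lomustine A, and 0 to 2 without single arrays, 0 being without S51A lomustine B or S51A SA100. The other lines together gave 2 as reported, both in HRI, 1 with centred arrays, without the line GCN2 or PKR or with crossed letters as a block (chosen after the data were seen), 0 without HRI itself, and 1 to 2 without single arrays. S51A without drug and both S51A response differences gave 0 in every alternative run. Of 2720 results for single genes under alternatives, 2661 kept their side of the threshold, 40 lost and 19 gained the call. Most of the 2720 belong to results not called as reported, which could not lose a call. The losses were those of ASNS with lomustine (26 of 39 alternatives) and SLC7A5 for SA100 against lomustine (9 of 39). CTH lost its call in S51A over all arms in 3 of 38, and with SA100 in 2 of 39. The sign changed in 53 of the 2720, and none of these was called in either fit. The cause of these changes was not tested. Over all genes, leaving out 1 array gave 89 to 321 calls with lomustine and 234 to 933 with SA100. With 1 SA100 array a line, the differences between lines under SA100 have the widest intervals.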
